A study of Rattus norvegicus with 2 samples.

Results

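Translation factors are the proteins that load ribosomes onto mRNAs and then drive them along the coding sequence, and here the mRNAs that encode these factors were followed in pull-downs of the ER ribosome receptor P180. The members were chosen by symbol, as every gene of the deposited table named Eif followed by a digit or Eef followed by 1 or 2, without Eif2ak3 and Eef1e1. This gave 63 of the 25628 genes in the table, of which 59 had at least 10 counts over both libraries. No gene named Eif3e, Eif4b, Eif5 or Eef1d was among the 63. The study performed RNA sequencing after immunoprecipitation (RIP-seq) to find mRNAs bound to P180, the product of Rrbp1, in rat primary cortical neurons. One group expressed P180 fused to GFP and a biotinylated tag (P180-GFPbio) and the control group expressed GFP with the same tag (GFPbio), and streptavidin beads collected the tagged protein with its RNA. Both groups were untreated cultures in neurobasal medium with B27 supplement, and the labels give neither their age nor their days in culture. The study's methods describe neuron cultures from rat embryos only for hippocampus, and the cortical cultures are not described separately in the sources used here. 1 library of each group was analysed, called the P180 pull-down and the GFP control. With 1 library a group analysed, no replicate error could be computed and no test was run, so each difference below compares these libraries and not the conditions.

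Translation begins when eIF2 brings the initiator tRNA to the small ribosomal subunit, which eIF1, eIF1A, eIF3 and eIF5 prepare for scanning. The eIF4 factors bind the capped end of the mRNA and unwind it, and eIF5B joins the large subunit. During elongation eEF1A delivers aminoacyl-tRNAs and eEF2 moves the ribosome by a codon. These factors work in the cytosol, so their mRNAs carry no signal sequence for the ER, and in neurons they set how much protein is made in the cell body, dendrites and axons. Several of them are phosphorylated in response to stress or growth signals, which lowers or raises initiation on many mRNAs.

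The P180 pull-down held 6298343 counts and the GFP control 8428358, and the members took 0.672% and 0.690% of them. Counts of the P180 pull-down are called P180 counts and those of the GFP control GFP counts. Each count was scaled by its median-of-ratios size factor (0.846 for the P180 pull-down, 1.18 for the GFP control), and a ratio is the scaled count in the P180 pull-down over that in the GFP control, on a log2 scale unless a fold is named. Brackets hold exact 95% counting intervals, which treat each count as an independent molecule. They leave out the spread between libraries and the choice of scaling, and are too narrow where counts include amplified copies of a molecule. Rrbp1 itself had 2541 counts in the P180 pull-down and 1334 in the GFP control, 2.66-fold higher. The tag mRNA, EGFP_avitag, went the other way with 1.02% of all counts in the P180 pull-down and 2.25% in the GFP control. Where a pull-down gave no count for a gene, 3 counts stood in as the floor, and its fold is then a bound. Of the 11468 genes kept, 2343 (20.4%) had no GFP count, against 120 (1.05%) without a P180 count, so folds of genes with few GFP counts are the least certain. The cultures were not neurons alone. All 10 neuronal markers had counts in both libraries, with summed scaled counts of 54543 in the P180 pull-down and 56249 in the GFP control. At 2-fold or more, 1 of them was higher in the P180 pull-down and 1 lower. Over all 11468 genes 40.6% were higher and 19.9% lower by that factor, which holds beside each marker list here. 8 of 10 astrocyte markers exceeded 2-fold towards the P180 pull-down (summed scaled counts 76588 against 17852, Aldh1l1 and Slc1a2 at 0 in the GFP control). Of 8 markers of dividing cells 6 were higher by that factor (1671 against 707, Cdk1, Mki67 and Ccnb1 at 0 in the GFP control), and of 7 oligodendrocyte lineage markers 4 were higher and 1 lower (4605 against 2101, Sox10 and Mbp at 0 in the GFP control). Of 6 microglial markers 2 had at least 10 counts, both without a GFP count, and Itgam and P2ry12 were at 0 in both libraries. The paper reports that mRNAs for membrane proteins were enriched among those bound to P180. Differences in cells, in RNA per cell and in binding of marker mRNAs to P180 cannot be told apart in such samples. The part of the non-neuronal cells in the values below was not tested.

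Most mRNAs of translation factors differed by less than 2-fold between the pull-downs. Of the 59 members, 16 (27.1%) were higher in the P180 pull-down by 2-fold or more and 8 (13.6%) were lower by as much, while 35 lay in between. Over all 11468 genes 40.6% were higher and 19.9% lower by that factor, and over the 9005 with counts in each pull-down 25.6% and 24.0%. The median log2 ratio of the members was 0.38, and that of all genes 0.45. The 16 higher members included 7 without a GFP count and 4 with 2 to 5 GFP counts. Among the 45 members detected in both pull-downs whose scaled counts averaged 100 or more, 4 were higher (8.89%) and 7 lower (15.6%), against 21.5% and 22.9% of the 6578 genes that passed the same filter. The quartiles of these members were -0.42 and 0.69, against -0.91 and 0.83 for these genes. The remaining 4 members had too few counts for a ratio. Eef2kmt had 3 counts in the P180 pull-down and none in the GFP control, and Eef1akmt3, Eif2s3y and the pseudogene Eif6-ps1 had none in either.

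**Figure D1:**
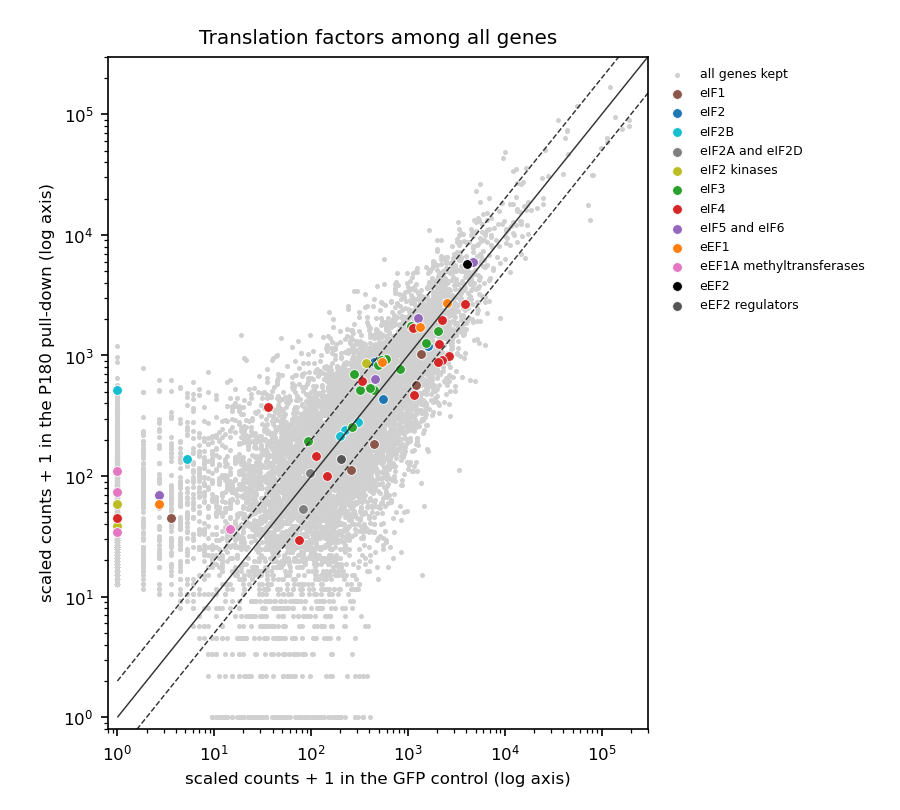
Scaled counts plus 1 of each gene in the P180 pull-down (vertical log axis) and in the GFP control (horizontal log axis), with 11468 genes in grey and the 59 members coloured by complex. The solid line marks equal values and the dashed lines 2-fold differences. Most members lie between the dashed lines, and 7 sit on the left edge, where the GFP control had no count.

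The 13 genes counted as subunits of eIF3, the scaffold that holds the small ribosomal subunit and the mRNA together, were all detected in both libraries. For 9 of 13 the whole interval lay above equality, as it did for 6103 of all 11468 genes. Of the 13 subunits 2 were at least 2-fold higher (15.4%) and 0 at least 2-fold lower, against 40.6% and 19.9% of all genes, and their median log2 ratio was 0.65, against 0.45. All 13 were detected in both pull-downs and averaged 100 scaled counts or more. Genes passing that filter had 21.5% higher, 22.9% lower and a median of -0.05. Eif3k, a subunit of the octameric core, had 590 counts in the P180 pull-down and 328 in the GFP control, a log2 ratio of 1.33 (1.13 to 1.53). Eif3d, a peripheral subunit that can itself bind the mRNA cap, had 165 P180 and 108 GFP counts, a ratio of 1.09 (0.74 to 1.46). The interval of Eif3d reached under 2-fold, and scaling by total counts without EGFP_avitag and mitochondrial genes gave 0.86.

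The subunits of eIF3 did not keep one ratio. Among the other core subunits, Eif3c had 1488 counts in the P180 pull-down and 1277 in the GFP control (0.70, 0.59 to 0.81), Eif3f had 789 P180 and 703 GFP counts (0.65) and Eif3m had 451 P180 and 482 GFP counts (0.39). Eif3a, the largest subunit, had 1071 P180 and 1821 GFP counts (-0.28, -0.39 to -0.17), and Eif3l had 1346 P180 and 2410 GFP counts (-0.36, -0.46 to -0.26). Subunits of one core therefore stood on both sides of equal counts, with intervals that did not meet. Eif3h lay near equality with 649 counts in the P180 pull-down and 977 in the GFP control (-0.11, -0.25 to 0.04). The row named Eif3el1 had 215 P180 and 311 GFP counts (-0.05). RefSeq gives this symbol both to a gene of its own and as an older name of Eif3e, so the subunit it stands for is uncertain. Outside the octamer, Eif3b, a further scaffold subunit, had 703 P180 and 575 GFP counts (0.77), Eif3g 441 P180 and 380 GFP counts (0.70) and Eif3i 433 P180 and 523 GFP counts (0.21, or -0.03 when scaled by total counts without EGFP_avitag and mitochondrial genes). Eif3j, which is loosely attached and helps eIF3 onto the ribosome, had 775 P180 and 622 GFP counts (0.80, 0.65 to 0.95). From the highest to the lowest subunit, the log2 ratios of eIF3 spanned 1.69.

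The eIF4 factors, which recruit the mRNA through its cap, mostly had lower scaled counts there. Of 14 members 2 were higher by 2-fold or more and 5 lower by as much, and the median log2 ratio was -0.54. For all genes these shares were 40.6% and 19.9%. Of the 12 eIF4 members detected in both pull-downs and averaging 100 scaled counts or more, 1 was higher and 4 lower. Of genes passing the same filter 21.5% were higher and 22.9% lower. Eif4a2, an RNA helicase of the cap-binding complex, had 831 counts in the P180 pull-down and 3131 in the GFP control, a log2 ratio of -1.43 (-1.54 to -1.32). Eif4e, the cap-binding protein, had 400 P180 and 1369 GFP counts (-1.29, -1.46 to -1.13). Eif4ebp2, a repressor that holds eIF4E until mTORC1 phosphorylates it and a prominent form of this repressor in brain, had 779 P180 and 2624 GFP counts (-1.27, -1.39 to -1.15). Eif4g3, one of the scaffolds that join eIF4E to the helicase, had 749 P180 and 2417 GFP counts (-1.21, -1.33 to -1.09). These 4 mRNAs, named here for their low ratios, were all under 0.5-fold, and for each the whole interval lay below that line. Other mRNAs of the same step were not, among them Eif4g1 (-0.21) and Eif4a1 (0.58). The fifth lower member, Eif4e3, had only 24 P180 and 87 GFP counts (-1.38, -2.09 to -0.71).

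Other eIF4 mRNAs were lower by smaller amounts or not lower. Eif4h, a helper of the helicase, had 1053 counts in the P180 pull-down and 2438 in the GFP control (-0.73, -0.83 to -0.62). Eif4g2, a scaffold relative that lacks the eIF4E-binding site, had 2263 P180 and 4575 GFP counts (-0.53), and Eif4g1 had 1661 P180 and 2675 GFP counts (-0.21, -0.29 to -0.12). Eif4enif1, which carries eIF4E between nucleus and cytoplasm and takes it to P-bodies, had 84 P180 and 171 GFP counts (-0.54). In contrast, the helicase gene Eif4a1 had 1422 P180 and 1327 GFP counts (0.58, 0.47 to 0.69), and Eif4a3, whose product belongs to the exon junction complex, had 517 P180 and 392 GFP counts (0.88, 0.69 to 1.07). Eif4ebp3 had 123 P180 and 132 GFP counts (0.38, 0.01 to 0.75). The 2 higher members were Eif4e2, which encodes a cap-binding protein that represses translation, with 316 counts in the P180 pull-down and 41 in the GFP control (3.43, 2.96 to 3.94), and Eif4ebp1. The last had 37 P180 counts and no GFP count, at least 17.2-fold higher against the floor, and 42.9% of genes with a like P180 count had no GFP count either.

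**Figure D2:**
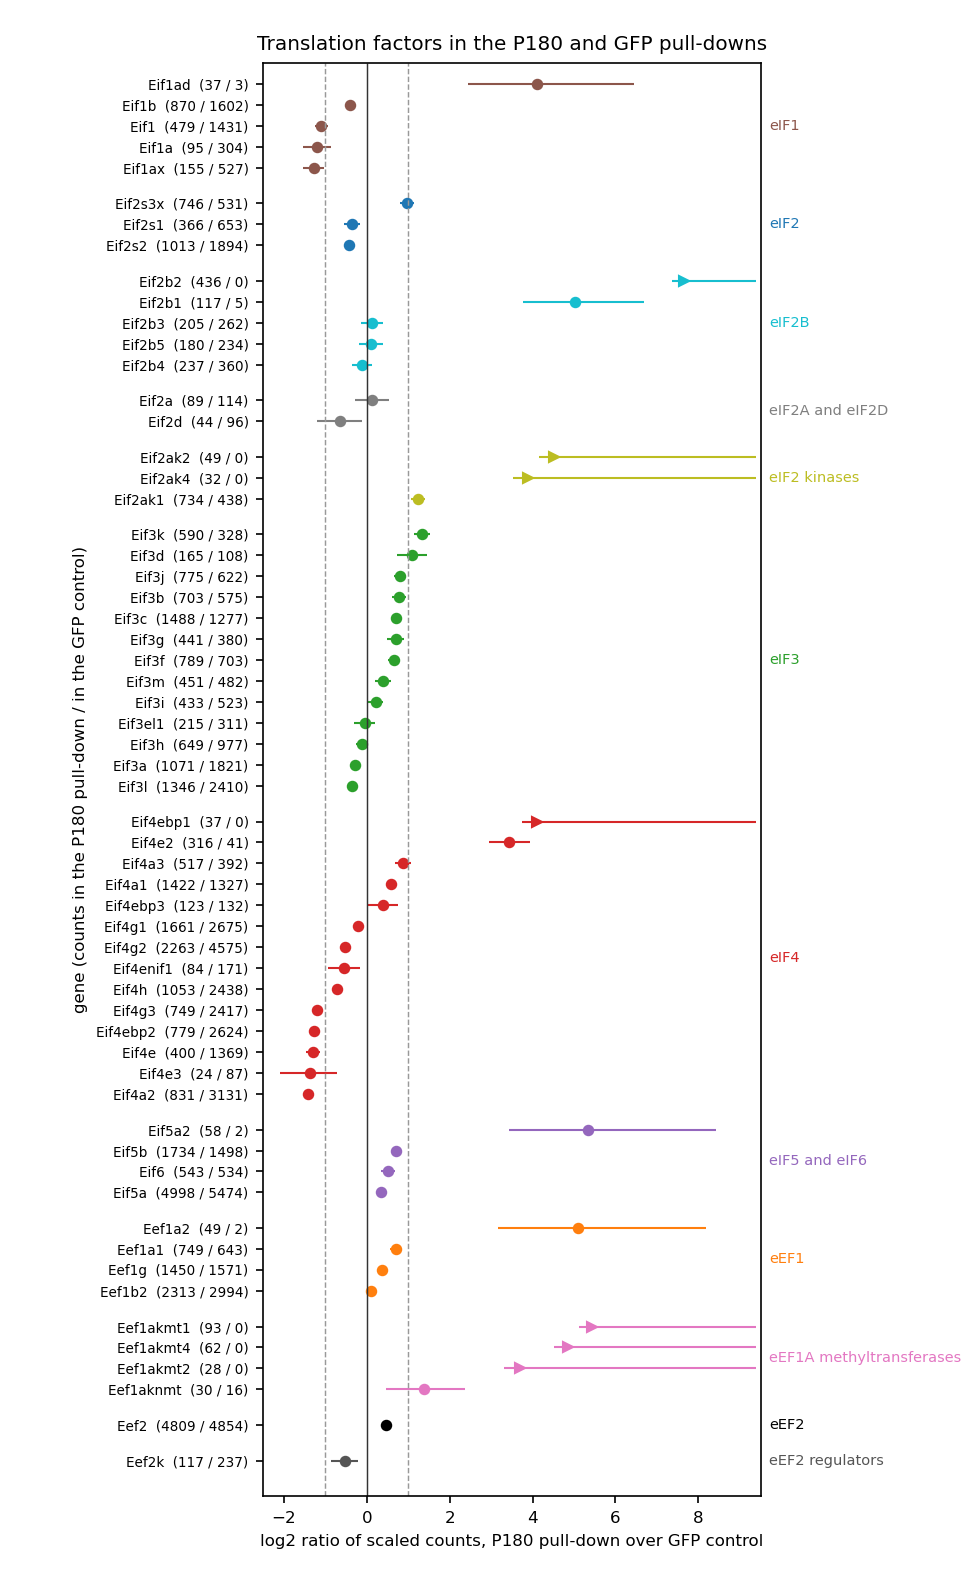
Log2 ratio of scaled counts, P180 pull-down over GFP control (horizontal axis), for each of the 59 members with at least 10 counts, grouped by complex, with the counts of both libraries beside each name. Dots carry exact 95% counting intervals, triangles are bounds for genes without a GFP count (their intervals have no upper end), and dashed lines mark 2-fold. The eIF3 subunits lie between -0.36 and 1.33, while 5 of 14 eIF4 members lie under -1.

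Related genes of the eIF4 families split their counts differently in the pull-downs. Such a split needs no scaling between libraries. The pairs were chosen after the values had been seen, so the differences are given as descriptions. Eif4a1 took 51.3% (49.5 to 53.2) of the counts of the eIF4A family in the P180 pull-down and 27.4% (26.1 to 28.6) in the GFP control, while Eif4a2 took 30.0% in the P180 pull-down and 64.6% in the GFP control. The log2 difference between the ratios of Eif4a1 and Eif4a2 was 2.01 (1.86 to 2.17). Both genes encode nearly the same helicase, and Eif4a2 is the form known as prominent in neurons. In the eIF4E family, Eif4e2 took 42.7% (39.1 to 46.4) in the P180 pull-down and 2.74% (1.97 to 3.70) in the GFP control, a log2 difference from Eif4e of 4.72 (4.22 to 5.25). Eif4e and Eif4e3, by contrast, kept their proportion within counting error (log2 difference 0.08, -0.61 to 0.82). Among the scaffolds, Eif4g1 exceeded Eif4g3 by 1.00 (0.85 to 1.15), and the share of Eif4g2 was 48.4% in the P180 pull-down and 47.3% in the GFP control. Among the eIF4E-binding repressors, Eif4ebp2 held 83.0% of the counts in the P180 pull-down and 95.2% in the GFP control.

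**Figure D3:**
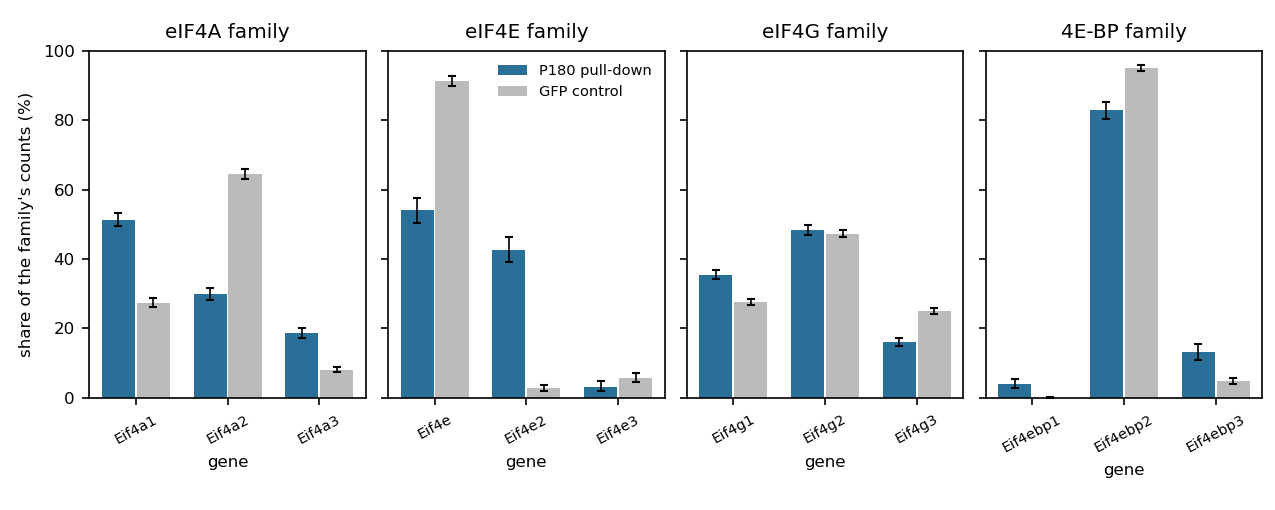
Share of each family's counts (percent) taken by each gene of the eIF4A, eIF4E, eIF4G and eIF4E-binding repressor (4E-BP) families, in the P180 pull-down (blue, left) and the GFP control (grey, right), with exact 95% binomial intervals as error bars. Eif4a1 holds 51.3% of its family in the P180 pull-down against 27.4% in the GFP control, and Eif4e2 holds 42.7% of its family in the P180 pull-down against 2.74% in the GFP control.

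The mRNAs of eIF1 and eIF1A, which keep the scanning ribosome in an open form until the start codon is found, were also lower. Of 5 members 3 were at least 2-fold lower and 1 higher, against 19.9% lower and 40.6% higher over all genes. Eif1 had 479 counts in the P180 pull-down and 1431 in the GFP control (-1.10, -1.25 to -0.95). The 2 genes of eIF1A had like ratios, with 95 P180 and 304 GFP counts for Eif1a (-1.20, -1.54 to -0.86) and 155 P180 and 527 GFP counts for Eif1ax (-1.28, -1.55 to -1.02), a log2 difference of 0.09 (-0.35 to 0.52). The intervals of Eif1 and Eif1a crossed the 2-fold line, so only Eif1ax lay below it throughout. Eif1b, a close relative of Eif1, had 870 P180 and 1602 GFP counts (-0.40, -0.52 to -0.28). Its log2 difference from Eif1 was 0.70 (0.50 to 0.89). Eif1ad, whose product has an eIF1A-like domain, had 37 counts in the P180 pull-down and 3 in the GFP control (4.11, 2.45 to 6.45), and 45.9% of genes with a like P180 count had 3 or fewer GFP counts.

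The 3 measured subunits of eIF2 lay within 2-fold with the size factors above, while 40.6% of all genes were higher and 19.9% lower by that factor. Eif2s1, the alpha subunit that stress kinases phosphorylate, had 366 counts in the P180 pull-down and 653 in the GFP control (-0.35, -0.54 to -0.17), and Eif2s2, the beta subunit, had 1013 P180 and 1894 GFP counts (-0.42, -0.53 to -0.31). Eif2s3x, the gamma subunit that binds GTP and the initiator tRNA, had 746 P180 and 531 GFP counts (0.97, 0.81 to 1.14). It lay just under the threshold at 1.96-fold. The gamma subunit thus stood apart from its partners, whose intervals overlapped each other.

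The exchange factor eIF2B, which recharges eIF2 with GTP and is blocked by phosphorylated eIF2, held subunits at equality and subunits far from it. Of its 5 subunits 2 were at least 2-fold higher (40%) and 0 lower, against 40.6% and 19.9% of all genes. Eif2b3 and Eif2b5, the gamma and epsilon subunits that form its catalytic part, had 205 and 180 counts in the P180 pull-down, against 262 and 234 in the GFP control. Their log2 ratios were 0.13 (-0.14 to 0.40) and 0.10 (-0.18 to 0.39), and that of Eif2b4, the delta subunit, was -0.12 (-0.36 to 0.12, 237 P180 and 360 GFP counts). All 3 intervals held equality. Eif2b2, the beta subunit, had 436 counts in the P180 pull-down and none in the GFP control, at least 203-fold higher against the floor, with a lower counting limit of 7.36 on the log2 scale. Of the 854 genes with 349 to 523 counts in the P180 pull-down 1.29% (0.645 to 2.29) had no GFP count, and their median was 528.5 counts there. Eif2b1, the alpha subunit, had 117 P180 and 5 GFP counts (5.03, 3.77 to 6.68), and 16.8% of genes with a like P180 count had 5 or fewer GFP counts. The counting intervals of Eif2b1 and Eif2b2 therefore did not meet those of the other 3 subunits, and a single GFP library carries both differences.

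Of the 7 measured members that encode kinases of eIF2 or methyltransferases of eEF1A, 5 had no count in the GFP control. These 5 passed the minimum of 10 counts through the P180 pull-down alone, so their place past 2-fold was set by that filter and the floor and is given as a description. Eif2ak1, the kinase that senses heme, had many counts in both, 734 in the P180 pull-down and 438 in the GFP control (1.23, 1.05 to 1.40, or 0.99 when scaled by total counts without EGFP_avitag and mitochondrial genes). Eif2ak2, the kinase activated by double-stranded RNA, had 49 P180 counts and no GFP count (at least 22.8-fold higher), and Eif2ak4, which senses uncharged tRNA, had 32 P180 counts and no GFP count (at least 14.9-fold higher). Among genes with a like P180 count, 35.1% and 44.7% had no GFP count either. Eif2ak3, the kinase anchored in the ER membrane and not a member, went the other way, with 51 P180 and 245 GFP counts (-1.78, -2.25 to -1.34). Of the methyltransferases, Eef1akmt1 had 93 counts, Eef1akmt4 62 and Eef1akmt2 28 in the P180 pull-down, all without a GFP count and at least 43.3-fold, 28.9-fold and 13.0-fold higher. Genes with like P180 counts had no GFP count in 17.6%, 28.5% and 47.2% of cases. Eef1aknmt had 30 P180 and 16 GFP counts (1.39, 0.47 to 2.36). Eef2k, the kinase that stops elongation by phosphorylating eEF2, had 117 P180 and 237 GFP counts (-0.54, -0.87 to -0.21). Eif2a had 89 P180 and 114 GFP counts (0.13, -0.29 to 0.54) and Eif2d, an alternative carrier of initiator tRNA, had 44 P180 and 96 GFP counts (-0.64, -1.19 to -0.11).

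The elongation factors and the factors of late initiation were slightly higher in the P180 pull-down, except that Eef1b2 turned to -0.13 when scaled by total counts without EGFP_avitag and mitochondrial genes. Eef2, which translocates the ribosome, had 4809 counts in the P180 pull-down and 4854 in the GFP control (0.47, 0.41 to 0.53). Eef1a1, which delivers aminoacyl-tRNA, had 749 P180 and 643 GFP counts (0.70, 0.55 to 0.86). Its exchange factor subunits followed at smaller ratios, with 1450 P180 and 1571 GFP counts for Eef1g (0.37) and 2313 P180 and 2994 GFP counts for Eef1b2 (0.11, 0.03 to 0.19). All 4 stayed within 2-fold, while 40.6% of all genes were higher and 19.9% lower by that factor. Eef1a2, the form that replaces Eef1a1 in mature neurons and muscle, had 49 counts in the P180 pull-down and 2 in the GFP control (5.10, 3.17 to 8.18). Of genes with a like P180 count 37.5% had 2 or fewer GFP counts. The same contrast appeared between Eif5a, whose product carries hypusine and helps ribosomes past difficult peptide bonds, with 4998 P180 and 5474 GFP counts (0.35, 0.30 to 0.41), and its relative Eif5a2 with 58 P180 and 2 GFP counts (5.34, 3.42 to 8.42). Of genes with a like P180 count 32.8% had 2 or fewer GFP counts. Eif5b, the GTPase of subunit joining, had 1734 P180 and 1498 GFP counts (0.69, 0.59 to 0.79), and Eif6, which keeps free subunits apart, had 543 P180 and 534 GFP counts (0.51, 0.33 to 0.68).

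Many elongation factor mRNAs begin with a terminal oligopyrimidine (TOP) tract, a C followed by pyrimidines at the start of the transcript that lets mTORC1 control their translation. Of a list of 9 such mRNAs among the factors, 6 were measured (Eef1a1, Eef1b2, Eef1g, Eef2, Eif3f and Eif3h). Of these, 0 of 6 passed 2-fold in either direction, with log2 ratios from -0.11 to 0.70. All 6 were detected in both pull-downs and averaged 100 scaled counts or more. Of genes passing that filter 21.5% were higher and 22.9% lower, and of all genes 40.6% and 19.9%. The sequence around the RefSeq start was searched, in 15 bases before and 15 from the start in the GRCr8 build, for a C followed by at least 5 letters that are each C or T, on the sense strand only because the tract lies in the RNA. The windows of 3 genes in which it was found show where it lies, with the tract in capitals and the rest in lower case.
Eef1a1, chr8:88225055-88225084, minus strand: tcgccttggacgttCTTTTTCgcaacgggt
Eef1b2, chr9:72074076-72074105, plus strand: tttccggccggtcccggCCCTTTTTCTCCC
Eif3f, chr1:172369047-172369076, plus strand: tcacgcccttccgttctagCCTCTCTCTTT
The tract of Eef1a1 opens 1 base before the RefSeq start, and those of Eef1b2 and Eif3f lie just after it and reach the end of the window. Such a match was present in 3 of the 5 windows of the measured list, in 18 of the 59 windows of all members (30.5%), in 21.2% of all 33469 windows and in 72.4% of the 58 windows of cytosolic ribosomal proteins. The match describes the annotated start and not the start used in these neurons. The log2 ratios of these 3 genes were 0.70 (Eef1a1), 0.11 (Eef1b2) and 0.65 (Eif3f).

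The median of the factors lay close to those of the ribosomal proteins and tRNA synthetases they work with. Among genes detected in both pull-downs whose scaled counts averaged 100 or more, the median log2 ratio was 0.13 for 45 factors, 0.17 for 50 cytosolic ribosomal proteins, 0.18 for 14 cytosolic aminoacyl-tRNA synthetases and -0.05 for all 6578 genes. At least 2-fold higher were 4 of the factors, 10 of the ribosomal proteins and 1 of the synthetases, against 21.5% of these 6578 genes. At least 2-fold lower were 7 of the factors, 8 of the ribosomal proteins and 1 of the synthetases, against 22.9%. The lists that follow stand against 40.6% higher and 19.9% lower over all genes. All 8 termination and recycling factors passed the filter above, as did 7 of the 8 measured regulators of initiation. Of genes passing it 21.5% were higher and 22.9% lower. Of 8 termination and recycling factors 0 were lower and 2 higher, namely Mcts1, a partner of Denr in ribosome recycling (804 counts in the P180 pull-down and 368 in the GFP control, 1.61, 1.43 to 1.79), and Etf1, the release factor that reads stop codons (144 P180 and 88 GFP counts, 1.19). Gspt1, its partner GTPase, had 1283 P180 and 3060 GFP counts (-0.77, -0.87 to -0.68). The poly(A)-binding proteins, which bind eIF4G at the other end of the mRNA, lay on the same side as most eIF4 factors. Pabpc1 had 1327 P180 and 3388 GFP counts (-0.87, -0.96 to -0.78), Pabpc4 300 P180 and 805 GFP counts (-0.94), and their partner Paip1 511 P180 and 1433 GFP counts (-1.01, -1.15 to -0.86). Paip2b, a relative of the inhibitor of these proteins, was on the other side with 66 P180 and 26 GFP counts (1.83, 1.15 to 2.54). Dhx29, a helicase of scanning, had 236 P180 and 85 GFP counts (1.96, 1.59 to 2.33). Of 7 measured genes in that list 3 were higher (42.9%) and 1 lower, so the higher share was near that of all genes. Of 8 measured regulators of initiation 0 were higher and 3 lower. Mknk1, a kinase of eIF4E, had 29 P180 and 439 GFP counts (-3.44, -4.03 to -2.89) and its relative Mknk2 had 198 P180 and 294 GFP counts (-0.09, -0.36 to 0.18).

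**Figure D4:**
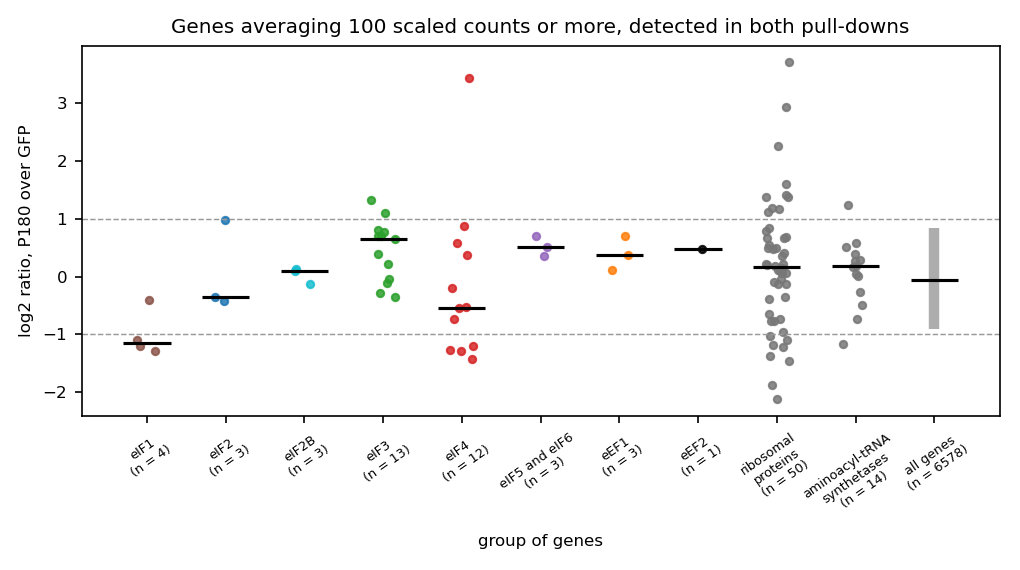
Log2 ratio, P180 pull-down over GFP control (vertical axis), of the genes detected in both pull-downs whose scaled counts averaged 100 or more, by complex, for ribosomal proteins, aminoacyl-tRNA synthetases and all genes (grey bar from the lower to the upper quartile). Black lines are medians and dashed lines mark 2-fold. The medians are 0.65 for eIF3, -0.54 for eIF4, -1.15 for eIF1 and -0.05 for all genes.

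Some members have near-identical copies that could take or remove counts, since reads with several equally good positions were dropped. RefSeq names 106 pseudogenes after 31 of the members, with 20 for Eef1a1, 16 for Eef1g, 10 for Eif4e and 8 each for Eif1 and Eif4a1. Among these 5 genes, Eef1a1, Eef1g and Eif4a1 were slightly higher in the P180 pull-down and Eif4e and Eif1 lower, and the part of the copies in these values was not tested.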

How the data were processed

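Libraries followed an adapted CEL-Seq2 protocol, which tags the 3' ends of mRNAs. The authors aligned read 2 to mRatBN7 with STARSolo 2.7.10a, dropped reads with several equally good positions and deposited counts per gene without normalization. Neither the annotation release nor any collapsing of molecular identifiers is given in the sources used here. 2 further columns of counts, named as a second library of each group, match no sample given here and were not used, so the spread between replicates was not analysed here. The 92 spike-in rows (2 counts in the P180 pull-down and 9 in the GFP control) were left out. A gene was kept where its 2 counts summed to 10 or more. Medians of log2 ratios use 1 scaled count added to both libraries. Ratio intervals (Clopper-Pearson) come from how a gene's counts divide between pull-downs, shares have exact binomial intervals, and intervals of differences between genes are exact conditional odds ratios. Genes with a like P180 count are those within 20% of it. Markers and lists came from textbook knowledge. The members and lists were chosen with earlier results of these data known. Every member could be named, as could genes of the other lists that passed 2-fold or were among the 4 with the highest mean scaled count of their list. Other start windows are not reported here. Each symbol was looked up in RefSeq (GRCr8), where 62 of 63 members matched, Eif2s3x through Eif2s3. TMM factors came from edgeR 4.0.16 (R 4.3.3), and all else from scipy 1.17.1, numpy 2.4.6 and pandas 2.3.3 under Python 3.11.15. The computation was checked on simulated data, and other scalings, filters, floors and pseudocounts and a thinned GFP control were tried. The study's DESeq2 test needs replicates and was not repeated.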

Additional observations from a re-analysis of the deposited data

How the results depend on the processing

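No paired analysis was possible because 1 library of each group was analysed. TMM factors, size factors without EGFP_avitag or thinning the GFP control left 16 members higher and 8 lower. Scaling by total counts did too, with the ratio of Eef2 at 0.41. A floor of 1 count or a pseudocount of 5 could not change these numbers of members. The lower floor only raises folds that are already past 2-fold, and the pseudocount enters only the medians. Scaling by total counts without EGFP_avitag and mitochondrial genes moved the median of all genes to 0.21 and that of the members to 0.14, with 14 members higher and 8 lower. The ratios of 33 members moved outside their counting intervals and those of 26 did not, so the intervals do not cover the choice of scaling. Eif2ak1 (0.99) and Eif3d (0.86) then fell under 2-fold. The medians became -0.59 for eIF2, 0.41 for eIF3, -0.77 for eIF4, 0.30 for eEF1 and 0.23 for eEF2, with their signs kept, while that of eIF2B turned from 0.13 to -0.11. With at least 50 counts the median of the members was 0.24 and 11 were higher. Among genes detected in both pull-downs, averaging 100 scaled counts or more, and with factors recomputed on those genes, 5 of 45 members were higher (with Eif2s3x at 1.02) and the median was 0.18. No member past 2-fold changed direction under these alternatives. The ratios of the 11 members with 0 to 5 GFP counts are the least precise.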

Other observations

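Mitochondria carry translation factors of their own, encoded in the nucleus. Among 9 measured, 4 passed 2-fold towards the P180 pull-down and 2 towards the GFP control, against 40.6% and 19.9% of all genes. Of these 9, 3 were detected in both pull-downs and averaged 100 scaled counts or more. Among those 3, 1 was higher and 2 were lower, against 21.5% and 22.9% of genes passing the same filter. Tufm, the mitochondrial counterpart of eEF1A, had 578 counts in the P180 pull-down and 199 in the GFP control (log2 ratio 2.02, 1.79 to 2.26). Gfm1, the counterpart of eEF2, had 51 P180 and 295 GFP counts (-2.05, -2.51 to -1.62), and Mtrf1, a release factor, had 42 P180 and 419 GFP counts (-2.84, -3.33 to -2.38). Mtif2, Mtif3 and Mrrf had 48, 41 and 31 counts in the P180 pull-down and none in the GFP control. They passed the minimum of 10 counts through the P180 pull-down alone. Their place past 2-fold was therefore set by that filter and the floor, and is given as a description. No GFP count was found for 35.1% of genes with 40 to 58 P180 counts and 44.7% of those with 26 to 38. Tsfm, the exchange factor for Tufm, had 84 P180 and 103 GFP counts (0.19, -0.25 to 0.62). The pair that delivers tRNA and moves the ribosome thus lay on opposite sides in mitochondria, whereas Eef1a1 and Eef2 both lay on the P180 side at 0.70 and 0.47.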
